A study of Mus musculus with 4 samples.

Results

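The transcripts of the monocyte chemokines and of their main receptor were followed across all cell classes of MC38 tumors as 6 genes chosen by symbol, Ccl2, Ccl7, Ccl8, Ccl11, Ccl12 and Ccr2, out of the 32285 genes counted. MC38 is a mouse colon adenocarcinoma line, and the tumors carried either wild-type RAC1 (WT) or RAC1 with the A159V change, which was knocked into the endogenous locus of this small GTPase. They grew under the skin of C57BL/6 mice of 6 to 8 weeks at purchase, and the mice received control IgG or anti-PD1, the antibody RMP1-14 that blocks the T cell checkpoint receptor PD-1. Whole tumors taken on day 13 were dissociated, CD45+ and CD45- cells were parted with beads and remixed at 2 to 1, and 3′ single-cell RNA-seq gave 1 library for each of the 4 groups, namely WT and A159V tumors under IgG and under anti-PD1, called here WT IgG, A159V IgG, WT anti-PD1 and A159V anti-PD1. The edited line of the main experiments was 1 homozygous clone, how many tumors entered a library was not given in the sources used here, and a point change cannot be seen in gene counts, so the genotype labels were taken as they stand. With 1 library per group no difference between groups could be tested. Every interval below is a 95% interval of counting error within a library and says nothing of the spread between mice.

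The libraries held 7430 to 9311 cells and 54402632 to 125227747 UMIs (unique molecular identifiers, each a captured transcript), and 29184 cells were analysed after filtering. Pairs of libraries shared 13 to 22 cell barcodes. The WT anti-PD1 library stood apart in its makeup: it held 25 tumor-like cells against 2031 to 2802 in the other libraries, 78 monocyte-like cells against 1303 to 1714, and 1401 fibroblast-like cells against 132 to 173, and all 182 endothelial-like cells were its own. Comparisons of WT anti-PD1 with WT IgG rest on that library, whereas the comparisons of A159V IgG with WT IgG and of A159V anti-PD1 with A159V IgG do not use it. Cell classes were named from marker genes, so the marker levels of a class describe it and are no separate support for its name. The summed level of 6 macrophage markers was 4217 to 6109.6 CPM in macrophage-like cells and 7.72 to 16.3 CPM in tumor-like cells. It was 939 to 1459 CPM in monocyte-like cells, and 6 monocyte markers summed to 1085 to 3302 CPM in macrophage-like cells. The lists thus part macrophage-like from monocyte-like cells less sharply. The level is given as CPM, the UMIs of a gene summed over the cells of a class in a library, divided by all UMIs of those cells and scaled by 1000000. A 3′ library counts each captured transcript once, so no scaling by gene length was made, and levels are compared within a gene.

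CCL2 and CCL7 are the chief ligands of CCR2, the receptor that lets classical Ly6C-high monocytes leave the bone marrow and enter inflamed tissue, and mouse CCL12 is a further CCR2 ligand. Mouse CCL8 acts mainly through CCR8, and CCL11 (eotaxin) draws eosinophils through CCR3. Macrophages, fibroblasts and many tumor cells transcribe these genes on NF-kB, AP-1 and interferon signals, and recruited monocytes lower Ccr2 as they turn into macrophages.

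The ligand genes are neighbours. On GRCm38 (GENCODE M21) Ccl2 lies at chr11:82035571-82037453, Ccl7 at chr11:82045712-82047525, Ccl11 at chr11:82057823-82062955, Ccl12 at chr11:82101845-82103400 and Ccl8 at chr11:82115185-82116799, all on the plus strand and within 81229 bases. Ccr2 lies apart at chr9:124101950-124113557, also on the plus strand. Ccl12 and Ccl8 stand side by side, and their levels went opposite ways between the WT libraries in macrophage-like cells (below), so the 250 bases before each start site are shown, from RefSeq on GRCm38.p6, with the TATA motif TATAAA in capitals.
Ccl12, chr11:82101595-82101844, plus strand: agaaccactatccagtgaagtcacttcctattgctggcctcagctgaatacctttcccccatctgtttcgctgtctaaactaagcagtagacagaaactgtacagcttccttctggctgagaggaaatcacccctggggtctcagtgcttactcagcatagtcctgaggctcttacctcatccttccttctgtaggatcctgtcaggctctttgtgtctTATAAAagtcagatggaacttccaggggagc
Ccl8, chr11:82114935-82115184, plus strand: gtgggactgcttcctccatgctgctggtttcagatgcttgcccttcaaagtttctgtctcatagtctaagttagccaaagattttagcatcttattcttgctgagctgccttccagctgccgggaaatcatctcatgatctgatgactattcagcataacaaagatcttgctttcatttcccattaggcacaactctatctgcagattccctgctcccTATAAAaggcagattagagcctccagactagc
Each window held 1 TATAAA, which began 31 bases before the start in Ccl12 and 32 bases before it in Ccl8, and 12.4% of the 32851 promoter windows of this length held one on either strand. Neither window held the AP-1 motif TGANTCA, the GAS motif TTCNNNGAA, the ISRE motif (searched as TTTC, any 2 bases, TTTC) or the NF-kB motif (searched as GGG, any 5 bases, CC), on either strand. These motifs were in 6.75%, 7.02%, 2.98% and 45.8% of all windows. The matches describe letters in these windows and nothing beyond them.

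**Figure D1:**
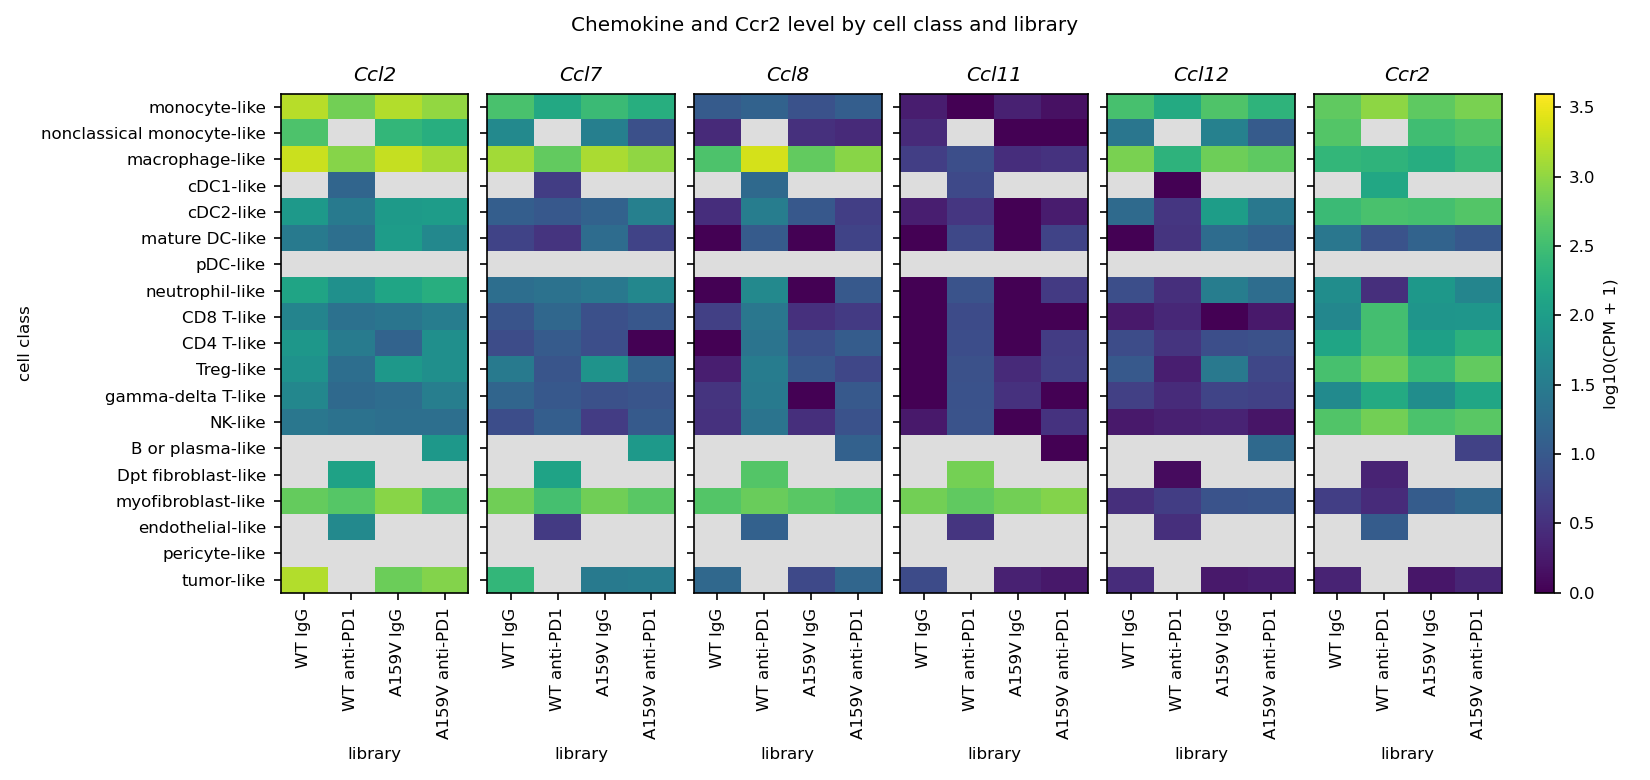
Level of each of the 6 genes (panels) in each cell class (vertical axis) and library (horizontal axis), as log10(CPM + 1) by color. Gray marks a class with fewer than 50 cells in that library. Ccl2 and Ccl7 stand out in monocyte-like, macrophage-like, myofibroblast-like and tumor-like cells, Ccl11 in fibroblast-like cells, Ccl12 in phagocytes, and Ccr2 in monocyte-like, NK-like, Treg-like and cDC2-like cells.

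Macrophage-like cells, over all libraries the largest immune class, transcribed 4 of the 5 ligands. Between the IgG libraries each of the 4 differed by less than 2-fold. In the WT anti-PD1 library Ccl8 was 5.94-fold higher than in WT IgG while Ccl2, Ccl7 and Ccl12 were 2.36-fold, 2.38-fold and 3.52-fold lower. The A159V anti-PD1 library differed from A159V IgG in the same directions by less than 2-fold for each of the 4 genes.

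Ccl2 stood at 2060.1 (2021 to 2099.9) CPM in WT and 1913 (1865 to 1962) in A159V under IgG, and 872 (853 to 892) in WT and 1323 (1295 to 1351) in A159V under anti-PD1, the intervals in parentheses. Both IgG libraries were higher than both anti-PD1 libraries, and the WT anti-PD1 library was the lowest. Ccl7 stood at 1277 CPM in WT and 1406 in A159V under IgG, and 535 in WT and 994 in A159V under anti-PD1, in which A159V IgG was the highest and WT anti-PD1 again the lowest. Ccl12 stood at 755 CPM in WT and 640.1 in A159V under IgG, and 214 in WT and 510.1 in A159V under anti-PD1, the same order as Ccl2. Ccl8 ran the other way, at 398 (381 to 416) CPM in WT and 537 (511 to 563) in A159V under IgG, and 2367 (2336 to 2399.7) in WT and 912 (889 to 935) in A159V under anti-PD1, lowest in WT IgG and highest in WT anti-PD1. Ccl11 was at 1.93 to 6.34 CPM in the 4 libraries, near its level in T-like cells.

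As log2 ratios of CPM + 1, the A159V IgG library over WT IgG gave -0.11 (-0.15 to -0.061) for Ccl2, 0.14 for Ccl7, -0.24 for Ccl12 and 0.43 (0.34 to 0.52) for Ccl8. None of the 4 ligands at 10 CPM or more passed 2-fold in either direction, where 0.756% of 8203 genes were 2-fold higher and 0.695% 2-fold lower. In WT anti-PD1 over WT IgG the ratios were -1.24 (-1.28 to -1.20) for Ccl2, -1.25 for Ccl7, -1.82 for Ccl12 and 2.57 (2.50 to 2.64) for Ccl8. Thus 1 ligand was 2-fold higher and 3 were 2-fold lower, against 5.57% and 5.74% of 8404 genes. In cells with more than 1000 genes Ccl2 was -0.87, short of 2-fold. In A159V anti-PD1 over A159V IgG they were -0.53 (-0.58 to -0.48) for Ccl2, -0.50 for Ccl7, -0.33 for Ccl12 and 0.76 (0.68 to 0.84) for Ccl8. No ligand passed 2-fold there, against 1.33% of 8173 genes higher and 0.722% lower, but Ccl8 was 1.12 with finer clusters (resolution 2). The median ratio of the 4 ligands was -0.11, -1.24 and -0.33 in the 3 comparisons, and that of all genes -0.00098, -0.050 and -0.032.

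**Figure D2:**
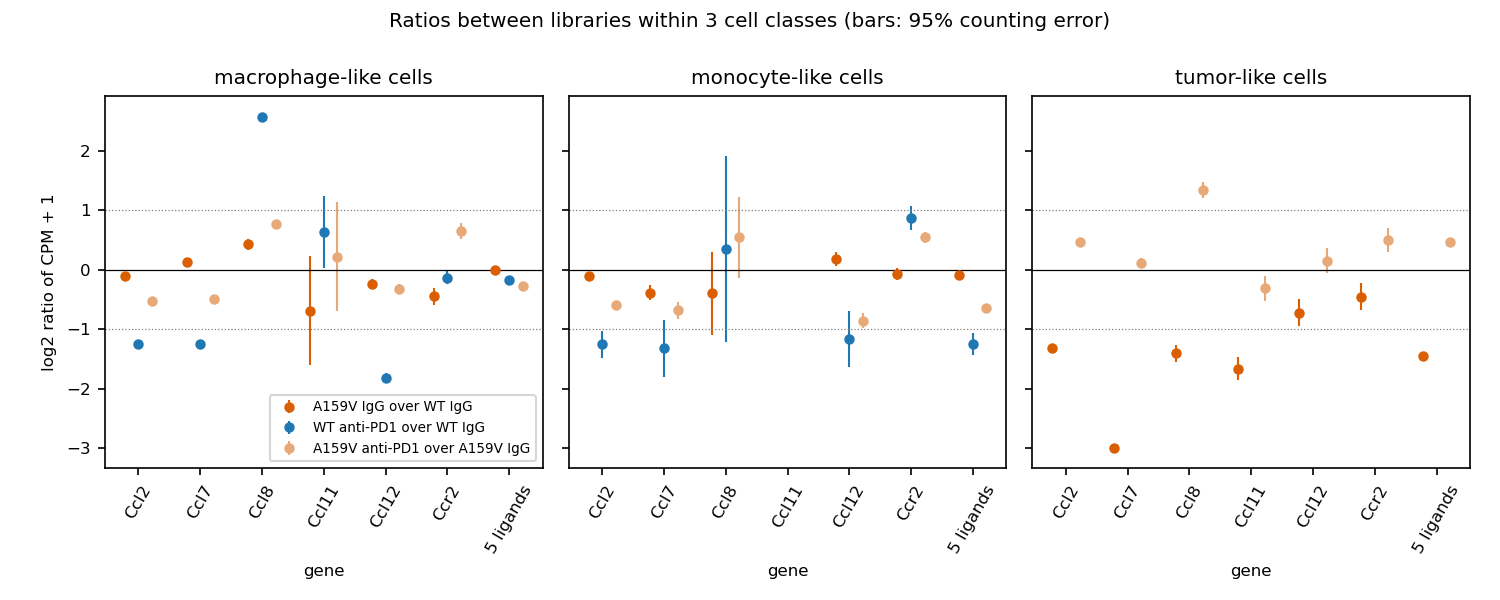
Log2 ratio of CPM + 1 (vertical axis) for each gene and for the sum of the 5 ligands (horizontal axis) between pairs of libraries in macrophage-like, monocyte-like and tumor-like cells, bars showing the 95% counting error and dotted lines 2-fold. In macrophage-like cells Ccl8 lies above 0 and Ccl2, Ccl7 and Ccl12 below it in both anti-PD1 comparisons, and in tumor-like cells Ccl7 of A159V IgG over WT IgG is lowest, at -2.99. Ccl11 in monocyte-like cells, with few UMIs over both libraries together, and the WT anti-PD1 library in tumor-like cells are not drawn.

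The summed level of the 5 ligands was close in all 4 libraries, at 4494 CPM in WT and 4498 in A159V under IgG, and 3995 in WT and 3741 in A159V under anti-PD1. As a sum, A159V IgG over WT IgG gave 0.0013 (-0.029 to 0.032) on the log2 scale, and those of the anti-PD1 libraries over their IgG libraries were -0.17 in WT and -0.27 in A159V. The last 2 values changed sign under other class definitions and have no set direction. In macrophage-like cells thinned to 1500 UMIs each, Ccl8 was found in 9.57% (7.93 to 11.4) of WT and 8.65% (6.96 to 10.6) of A159V cells under IgG, and in 35.8% (33.4 to 38.3) of WT and 14.2% (12.5 to 15.9) of A159V cells under anti-PD1. In the same order, the unthinned shares were 12.8%, 10.1%, 42.5% and 17.4%, and 132, 325, 393 and 232 shallower cells were left out of the thinned ones. T-like cells, no known source of CCL8, gave thinned shares of 0.491%, 0.704%, 3.41% and 1.04%. The higher share in WT anti-PD1 therefore stood above that library's own background, with median depths of 3677 UMIs in its macrophage-like and 3067 in its T-like cells.

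Fibroblast transcripts were also higher where Ccl8 was. The summed level of 6 fibroblast markers in macrophage-like cells was 686 CPM in WT anti-PD1, with all 6 above 0, and 45.8 to 80.9 CPM in the other libraries. In the WT anti-PD1 library fibroblast-like cells held Ccl8 and Ccl11 at 516 and 619.7 CPM, whereas macrophage-like cells held them at 2367 and 6.34 CPM. The part of fibroblast transcripts in the Ccl8 of macrophage-like cells was not tested.

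The macrophage-like class was not made of the same clusters in each library. Clusters 7, 11 and 13 held 523, 554 and 438 of the 1859 macrophage-like cells of WT anti-PD1, while clusters 1 and 2 held 361 and 437 of 1281 in WT IgG and 672 and 386 of 1296 in A159V IgG. In A159V anti-PD1 clusters 6, 4 and 1 held the most, 533, 424 and 409 of 1850. Clusters were built without the 6 genes. Cluster 11 and cluster 13 took 88.1% and 85.9% of their cells from WT anti-PD1, so each may be that library as much as a cell state.

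The ligands differed in where they stood highest among the phagocyte clusters, though Ccl2, Ccl7 and Ccl12 shared some of these clusters. Values are pooled over the 4 libraries and given as a description. Ccl8 stood at 6315 CPM in cluster 7, whose leading genes were Cbr2, Cd163, Ccl8 itself, Retnla and Mrc1, mostly genes of resident and alternatively activated macrophages, at 1368 CPM in cluster 13 and at 40.3 to 530.5 CPM in the other macrophage-like clusters. Ccl2 was highest in cluster 6, led by Cxcl3, Mmp8 and Arg1 (arginase), at 2657 CPM, and in the interferon-marked monocyte-like cluster 8 (Ifit2, Ly6c2), at 2509 CPM. Ccl7 ran from 1275 to 1464 CPM in clusters 6, 2 and 1. Ccl12 was highest in the complement (C1q) cluster 2, at 942 CPM, and in cluster 8, at 890.0 CPM. Ccr2 did not follow Ccl2 in either direction: in monocyte-like cluster 9 (Chil3, Lyz2, Hp) it stood at 1058 CPM beside 427 of Ccl2, and in the MHC class II cluster 4 at 757 CPM, the highest of the macrophage-like clusters, while clusters 7 and 13, with 901 and 905 CPM of Ccl2, held 92.7 and 72.8 CPM of Ccr2.

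**Figure D3:**
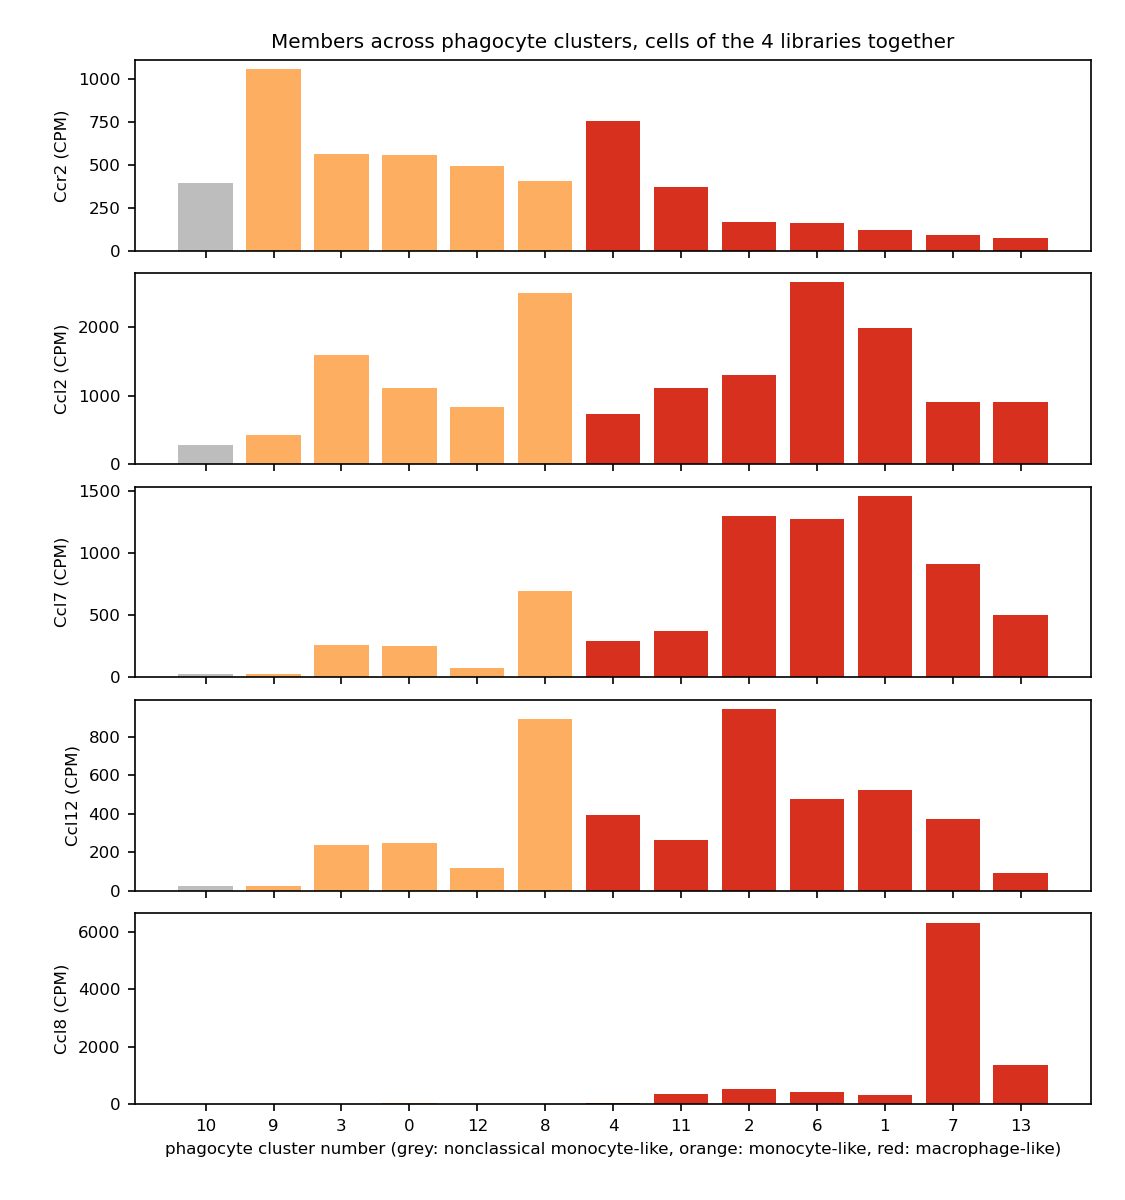
Level (CPM, vertical axes) of Ccr2, Ccl2, Ccl7, Ccl12 and Ccl8 in each phagocyte cluster (horizontal axis, cluster number), pooled over the cells of the 4 libraries. Ccl8 is concentrated in cluster 7 at 6315 CPM, and Ccr2 peaks in monocyte-like cluster 9 and, among macrophage-like clusters, in cluster 4.

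Within clusters the anti-PD1 values kept the direction of Ccl8 but not always of the others. Clusters 4 and 6 had at least 50 cells in both WT libraries, and Ccl8 of WT anti-PD1 over WT IgG was 1.92 in cluster 4 and 2.32 in cluster 6 on the log2 scale. Ccl2 was -2.32 and -0.94, Ccl7 -3.46 and -0.50, and Ccl12 -2.65 and 0.12, so the lower Ccl12 of the class was found in cluster 4 alone of these. In A159V anti-PD1 over A159V IgG, Ccl8 was higher in clusters 1, 2 and 6, at 1.06, 0.65 and 1.19, and at 1.48 (-0.38 to 3.34) in cluster 4, within counting error, and Ccl2 was lower in all 4, from -1.72 to -0.15. Between the IgG libraries the class gave 0.43 for Ccl8, while cluster 1 gave -1.10 (-1.31 to -0.89), the other direction. Clusters 2, 4 and 6 gave -0.16 (-0.36 to 0.032), -1.31 (-3.21 to 0.58) and -0.43 (-1.03 to 0.16), which do not differ from 0 beyond counting error. Cluster 7, which held 63.1% of the Ccl8 UMIs of the class in A159V IgG and 33.8% in WT IgG, had 41 and 21 cells there.

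Monocyte-like cells, the class with the most Ccr2, also held Ccl2 as a class. Their Ccl2 stood at 1648 CPM in WT and 1540.4 in A159V under IgG, and 691 in WT and 1027 in A159V under anti-PD1, and their Ccl7 at 372 CPM in WT and 285 in A159V under IgG, and 148 in WT and 177 in A159V under anti-PD1. For both genes the IgG libraries were higher than the anti-PD1 libraries. Ccl12 stood at 353 CPM in WT and 399 in A159V under IgG, and 157 in WT and 220.4 in A159V under anti-PD1, with the same split. Ccl8 was at 7.16 to 12.7 CPM, far under its level in macrophage-like cells, and Ccl11 was at 0 to 1.13 CPM, where the 0 in WT anti-PD1 allows up to 12.7 CPM at 3 UMIs.

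In the monocyte-like cells of A159V IgG over WT IgG the log2 ratios were -0.098 (-0.15 to -0.042) for Ccl2, -0.38 for Ccl7 and 0.18 for Ccl12. None of the 3 measured ligands passed 2-fold, against 0.833% of 7322 genes higher and 1.13% lower. Inside 4 of the 5 monocyte-like clusters, however, Ccl12 was higher in A159V IgG beyond counting error, by 0.40 to 1.36, cluster 9 gave 0.57 (-0.39 to 1.53), and the interferon-marked cluster 8, the richest in Ccl12, held 362 of 1515 cells in WT IgG and 141 of 1303 in A159V IgG. WT anti-PD1 over WT IgG gave -1.25 (-1.48 to -1.03) for Ccl2, -1.32 (-1.80 to -0.84) for Ccl7 and -1.16 (-1.63 to -0.70) for Ccl12, on 163, 35 and 37 UMIs in 78 cells. These 3 of 4 measured ligands were 2-fold lower, where 8.64% of 7916 genes were 2-fold lower and 17.1% 2-fold higher, and the median of all genes was shifted to 0.27. With doublets kept these were -1.02, -0.24 and -0.25, and by a gate on marker genes -0.86, -0.49 and -0.25, so the lower Ccl7 and Ccl12 of WT monocyte-like cells under anti-PD1 rest on few cells and on how these were chosen. A159V anti-PD1 over A159V IgG gave -0.58 (-0.65 to -0.52), -0.68 (-0.82 to -0.54) and -0.85 (-0.98 to -0.73), with 0 of 4 measured ligands past 2-fold against 0.64% of 7344 genes higher and 0.504% lower. Ccl2 was lower in A159V anti-PD1 in all 5 clusters, at -0.38 to -1.01.

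Nonclassical monocyte-like cells, so named from their markers, held less of the CCR2 ligands than monocyte-like cells. They also held Ly6c2, a gene of classical monocytes, at 929 CPM pooled over the 4 libraries, so the name is loose. Their Ccl2 was 393 CPM in WT IgG, 242 in A159V under IgG and 182 in A159V under anti-PD1, their Ccl7 ran from 6.61 to 48.5 CPM and their Ccl12 from 9.92 to 37.4 CPM. The WT anti-PD1 library had only 17 such cells.

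Tumor-like cells differed between the IgG libraries in 3 of these genes. As ratios of CPM + 1, Ccl7 was 7.93-fold lower, Ccl2 2.48-fold lower and Ccl8 2.64-fold lower with A159V than with WT under IgG. The Ccl8 level of A159V IgG, 5.19 CPM, was low and lay within the 2.32 to 5.70 CPM of T-like cells in the same 3 libraries. Its folds thus compare with a low level. Depth differs between these classes, so T-like cells need not give the background of tumor-like cells, which was not tested. Under anti-PD1 the A159V tumor had 1.39-fold more Ccl2 and 2.53-fold more Ccl8 than under IgG, also as ratios of CPM + 1. The WT anti-PD1 library had too few tumor-like cells for a level.

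Ccl2 stood at 1526 (1516 to 1535) CPM in WT IgG, 616 (611 to 621) in A159V under IgG and 855 (849 to 862) in A159V under anti-PD1 in tumor-like cells, highest in WT IgG. Ccl7 stood at 239 (236 to 243) CPM in WT IgG, 29.3 (28.2 to 30.5) in A159V under IgG and 31.9 (30.7 to 33.1) in A159V under anti-PD1, so both A159V libraries were far lower than WT IgG. Ccl8 was at 15.4 CPM in WT IgG, 5.19 in A159V under IgG and 14.6 in A159V under anti-PD1, low throughout, with A159V IgG the lowest. Ccl11 and Ccl12 stayed under 10 CPM, at 0.716 to 5.73 and 0.766 to 1.91 CPM. On the log2 scale A159V IgG over WT IgG gave -1.31 (-1.32 to -1.29) for Ccl2, -2.99 (-3.05 to -2.93) for Ccl7 and -1.40 (-1.54 to -1.26) for Ccl8. All 3 measured ligands were 2-fold lower, against 4.2% of 8903 genes lower and 1.76% higher. With finer clusters Ccl2 was -0.79 and Ccl7 -2.39. By a gate on marker genes Ccl2 was -0.98, Ccl7 -1.86 and Ccl8 -0.49, so only Ccl7 kept 2-fold in the class under every alternative tried. A159V anti-PD1 over A159V IgG gave 0.47 (0.46 to 0.49) for Ccl2, 0.12 (0.044 to 0.19) for Ccl7 and 1.34 (1.21 to 1.47) for Ccl8, of which only Ccl8 passed 2-fold, against 0.151% of 8611 genes higher and 0.0465% lower. The value of Ccl7 in that comparison changed sign under other settings, and that of Ccl8 was 0.70 at a pseudocount of 10 CPM.

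Median depth of the tumor-like cells was 29719 UMIs in WT IgG and 30770 in A159V IgG, so the lower share of A159V cells with Ccl2 did not go with fewer UMIs. After thinning to 1500 UMIs, Ccl2 was found in 50.9% (48.7 to 53.1) of cells in WT IgG, 29.4% (27.7 to 31.1) in A159V under IgG and 35.4% (33.4 to 37.6) in A159V under anti-PD1, and Ccl7 in 16.8%, 3.37% and 2.42%. The unthinned shares were 87.3%, 68.2% and 79.95% for Ccl2 and 44.0%, 14.1% and 20.9% for Ccl7. T-like cells had Ccl2 in 7.98%, 4.69% and 7.06% of thinned cells and Ccl7 in 2.58%, 2.35% and 0.926%. Treg-like cells held 28 of the 51 Ccl7 UMIs of T-like cells in WT IgG and 41 of 48 in A159V IgG, and their cluster 14 also held the macrophage gene C1qa at 75.3 CPM, so the T-like share is no clean background for Ccl7. In CD8 T-like cells Ccl7 was in 1.45%, 0.813% and 0.68% of thinned cells. The median tumor-like cell held 11 Ccl2 UMIs in WT IgG, 2 in A159V under IgG and 5 in A159V under anti-PD1, and the top 1% of cells held 14.2%, 23.3% and 18.8% of the Ccl2 UMIs.

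The makeup of the tumor-like class differed between the genotypes. Cluster 7, led by Edil3, Sema3a and Sox9, held 1230 of 2031 tumor-like cells in WT IgG and 166 of 2802 in A159V IgG, and 81.7% of it came from WT IgG. Within clusters the difference in Ccl2 was smaller than over the class. In cluster 1 it was 407 against 318 CPM (-0.35), in the interferon-marked cluster 3 (Cxcl10, Rsad2) 1451 against 1037 CPM (-0.48), and in cluster 7 2144 against 1249 CPM (-0.78). Ccl7 was lower in A159V IgG in the same clusters, at -0.70, -1.59 and -0.96. Ccl8 was 0.96 in cluster 1, the opposite of the class, and -0.32 and -1.37 in clusters 3 and 7. Ccl8 of A159V anti-PD1 over A159V IgG was higher in all 3, at 1.03, 1.23 and 2.26.

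**Figure D4:**
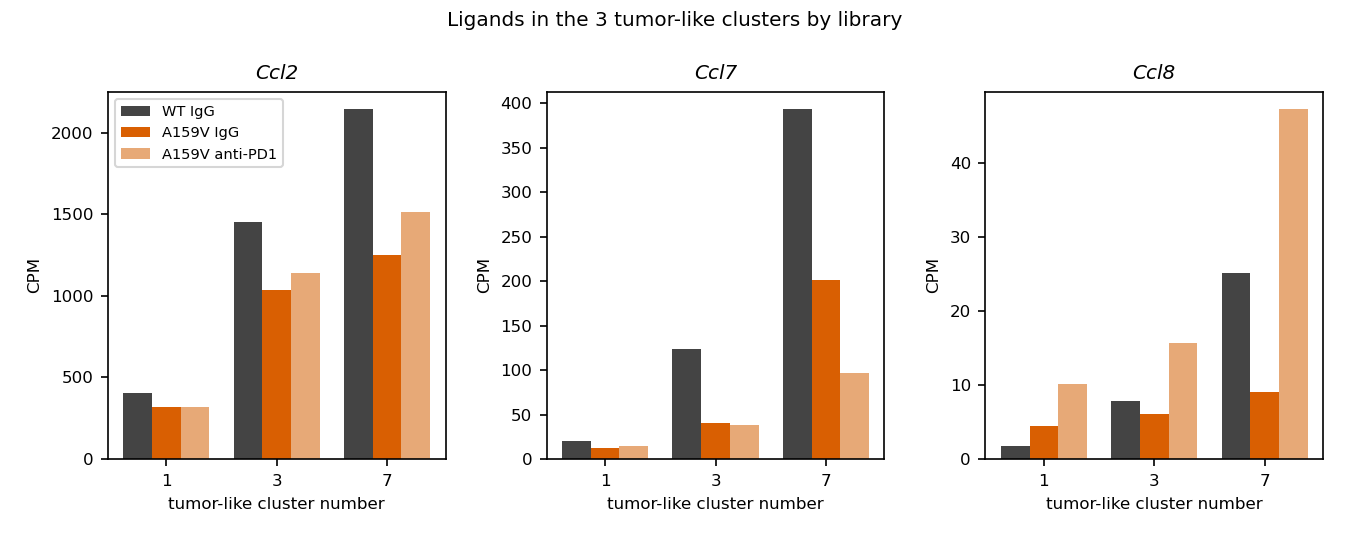
Level (CPM, vertical axes) of Ccl2, Ccl7 and Ccl8 in the 3 tumor-like clusters (horizontal axis) of the 3 libraries with enough tumor-like cells. In each cluster the WT IgG bar is the tallest for Ccl2 and Ccl7, and the A159V anti-PD1 bar is the tallest for Ccl8.

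Markers of other cell classes were also higher in the tumor-like cells of WT IgG. Their 6 macrophage markers summed to 16.3 CPM in WT IgG, 7.72 in A159V under IgG and 9.99 in A159V under anti-PD1, and their 6 fibroblast markers to 433, 117 and 90.5 CPM, with every marker above 0. In WT IgG the same fibroblast markers summed to 54.0 CPM in macrophage-like and 50.1 CPM in monocyte-like cells. Whether those in tumor-like cells were their own transcripts or came from other cells was not tested. In tumor-like cells with no UMI of Ptprc (CD45), Col1a1, Col1a2, Col3a1 or Dcn, 476 in WT IgG, 976 in A159V under IgG and 528 in A159V under anti-PD1, Ccl2 stood at 1029.8, 607 and 891 CPM and Ccl7 at 82.1, 11.8 and 22.3 CPM. In these cells A159V IgG over WT IgG was -0.76 for Ccl2 and -2.70 for Ccl7, and A159V anti-PD1 over A159V IgG was 0.87 for Ccl7 and 0.85 for Ccl8. Ccl2 and Ccl7 were thus still lower in A159V IgG, Ccl2 by less than 2-fold.

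Fibroblast-like cells were the place of Ccl11. In myofibroblast-like cells it stood at 687 CPM in WT and 669.9 in A159V under IgG, and 532 in WT and 847 in A159V under anti-PD1, and in the 766 Dpt fibroblast-like cells of WT anti-PD1 at 714 (699 to 730.0) CPM. A159V IgG and WT IgG could not be told apart, with overlapping intervals, and A159V anti-PD1 was the highest. Myofibroblast-like cells also held Ccl7 at 658 CPM in WT and 661 in A159V under IgG, and 342 in WT and 475 in A159V under anti-PD1, where the IgG libraries were equal and the anti-PD1 libraries lower. Their Ccl8 was at 425 CPM in WT and 476 in A159V under IgG, and 595 in WT and 386 in A159V under anti-PD1, within a narrow range, and their Ccl2 at 551 CPM in WT and 918 in A159V under IgG, and 449.6 in WT and 329 in A159V under anti-PD1, highest in A159V IgG. For Ccl2, A159V IgG over WT IgG gave 0.73 (0.62 to 0.85) here, opposite in direction to that of tumor-like cells, and that of A159V anti-PD1 over A159V IgG was -1.48 (-1.62 to -1.33). The Dpt fibroblast-like cells of WT anti-PD1 held less Ccl2 and Ccl7, 117 and 122 CPM, and 431 CPM of Ccl8. Ccl12 did not pass 7.84 CPM in myofibroblast-like cells. Endothelial-like cells, seen only in WT anti-PD1, held 48.0 CPM of Ccl2.

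The sender classes were ordered by their Ccl2 level. In WT IgG macrophage-like cells were the highest (2021 to 2099.9), then monocyte-like (1610.1 to 1687), tumor-like (1516 to 1535), myofibroblast-like (519 to 585) and nonclassical monocyte-like cells (344 to 447), with no 2 neighbouring intervals overlapping. In A159V IgG myofibroblast-like cells (870.2 to 968) stood above tumor-like cells (611 to 621), but in A159V anti-PD1 tumor-like cells (849 to 862) were again above myofibroblast-like cells (302 to 358), the order of WT IgG. Lymphocytes and neutrophils gave the lower end: T-like cells held 21.1 to 53.0 CPM of Ccl2, 8.54 to 29.2 of Ccl7, 1.64 to 11.6 of Ccl12 and 0 to 6.35 of Ccl11 in the 4 libraries. Their Ccl8 was 27.3 CPM in WT anti-PD1 and 2.32 to 5.70 in the others, the same order as in macrophage-like cells. T cells are not a known source of these chemokines, and such values were read as background. It is no clean background for Ccl2 and Ccl12 either: Treg-like cluster 14, with C1qa at 75.3 CPM, held them at 170 and 38.4 CPM over the 4 libraries. A zero in T-like cells, as for Ccl11 in WT IgG, allows a level of up to 0.869 CPM at 3 UMIs.

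Ccr2, the receptor, was highest in monocyte-like cells, at 530.1 (509 to 552) CPM in WT and 506 (479.6 to 534) in A159V under IgG, and 971 (849 to 1105) in WT and 739.8 (715 to 765) in A159V under anti-PD1. Both anti-PD1 libraries were higher than both IgG libraries, and the IgG libraries had overlapping intervals. On the log2 scale A159V IgG over WT IgG was -0.066 (-0.16 to 0.031), WT anti-PD1 over WT IgG 0.87 (0.68 to 1.07) and A159V anti-PD1 over A159V IgG 0.55 (0.46 to 0.64). Scaled by the median ratio of genes, the WT anti-PD1 value was 0.58. The thinned share of monocyte-like cells with Ccr2 was 48.0% (45.0 to 51.0) in WT and 48.3% (44.9 to 51.7) in A159V under IgG, and 60.8% (46.1 to 74.2) in WT and 57.6% (54.8 to 60.4) in A159V under anti-PD1, or 57.3%, 51.3%, 66.7% and 62.5% without thinning. Tumor-like cells, which lack the receptor, gave 0.143% to 0.339% in the 3 libraries with enough of them. Within the 5 monocyte-like clusters, A159V anti-PD1 over A159V IgG ran from -0.0022 in cluster 0 to 0.81 in cluster 9, so the higher class value was not found in cluster 0.

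Macrophage-like cells kept Ccr2 at a lower level, 238 CPM in WT and 174 in A159V under IgG, and 217 in WT and 275 in A159V under anti-PD1. A159V IgG was the lowest and A159V anti-PD1 the highest. WT anti-PD1 over WT IgG was -0.13, or -0.86 with doublets kept. The cluster ratios of A159V anti-PD1 over A159V IgG were 0.39, -0.48, 0.12 and -0.36 in clusters 1, 2, 4 and 6, both signs, of which those of clusters 4 and 6 lie within counting error, while the class gave 0.66 (0.52 to 0.79). The Ccr2-rich cluster 4 held 95 of 1296 macrophage-like cells in A159V under IgG and 424 of 1850 in A159V under anti-PD1. Nonclassical monocyte-like cells stood between, at 438 CPM in WT IgG, 315 in A159V under IgG and 402 in A159V under anti-PD1, and cDC2-like cells, dendritic cells that share monocyte-like traits, at 288 CPM in WT and 344 in A159V under IgG, and 370.3 in WT and 438 in A159V under anti-PD1.

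T and NK cells carried Ccr2 too, and each of their 5 classes had its highest level in WT anti-PD1. NK-like cells stood at 415 CPM in WT and 381 in A159V under IgG, and 679 in WT and 469 in A159V under anti-PD1. Treg-like cells, the regulatory CD4 T cells, stood at 355 CPM in WT and 263 in A159V under IgG, and 647 in WT and 546 in A159V under anti-PD1. In both classes the anti-PD1 libraries were above the IgG libraries of the same genotype. CD4 T-like cells ran from 109 to 343 CPM and gamma-delta T-like cells from 52.3 to 156 CPM.

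Among these classes CD8 T-like cells showed the widest gap in Ccr2. They stood at 45.1 (34.4 to 58.1) CPM in WT and 74.5 (51.6 to 104) in A159V under IgG, and 336 (310.2 to 362) in WT and 76.0 (61.6 to 92.7) in A159V under anti-PD1, on 60, 34, 648 and 97 UMIs. As a ratio of CPM + 1, WT anti-PD1 was 7.30-fold above WT IgG. A159V anti-PD1 did not differ from A159V IgG beyond counting error, at 0.029 (-0.53 to 0.59) on the log2 scale. The WT effect minus the A159V effect was 2.84 (2.17 to 3.51), a counting interval that was not tested against the spread between mice. In the same order, the thinned shares with Ccr2 were 7.64% (4.79 to 11.4), 8.94% (4.55 to 15.4), 33.6% (29.2 to 38.1) and 8.84% (5.86 to 12.7), and the unthinned ones 13.2%, 11.4%, 47.2% and 13.7%. Cluster 2 of the T and NK cells held 498 of the 542 CD8 T-like cells of WT anti-PD1, against 9 of 311 in WT IgG, 1 of 185 in A159V under IgG and 13 of 388 in A159V under anti-PD1. Over all libraries it had 343 CPM of Ccr2, and the CD8 T-like clusters 3 and 7 had 191 and 12.4 CPM. The 6 fibroblast markers summed to 652 CPM in the CD8 T-like cells of WT anti-PD1 and to 35.3 to 61.9 in the others. Fibroblast-like cells of WT anti-PD1 held 1.54 CPM of Ccr2, and the part of other cells' transcripts in the result was not tested.

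**Figure D5:**
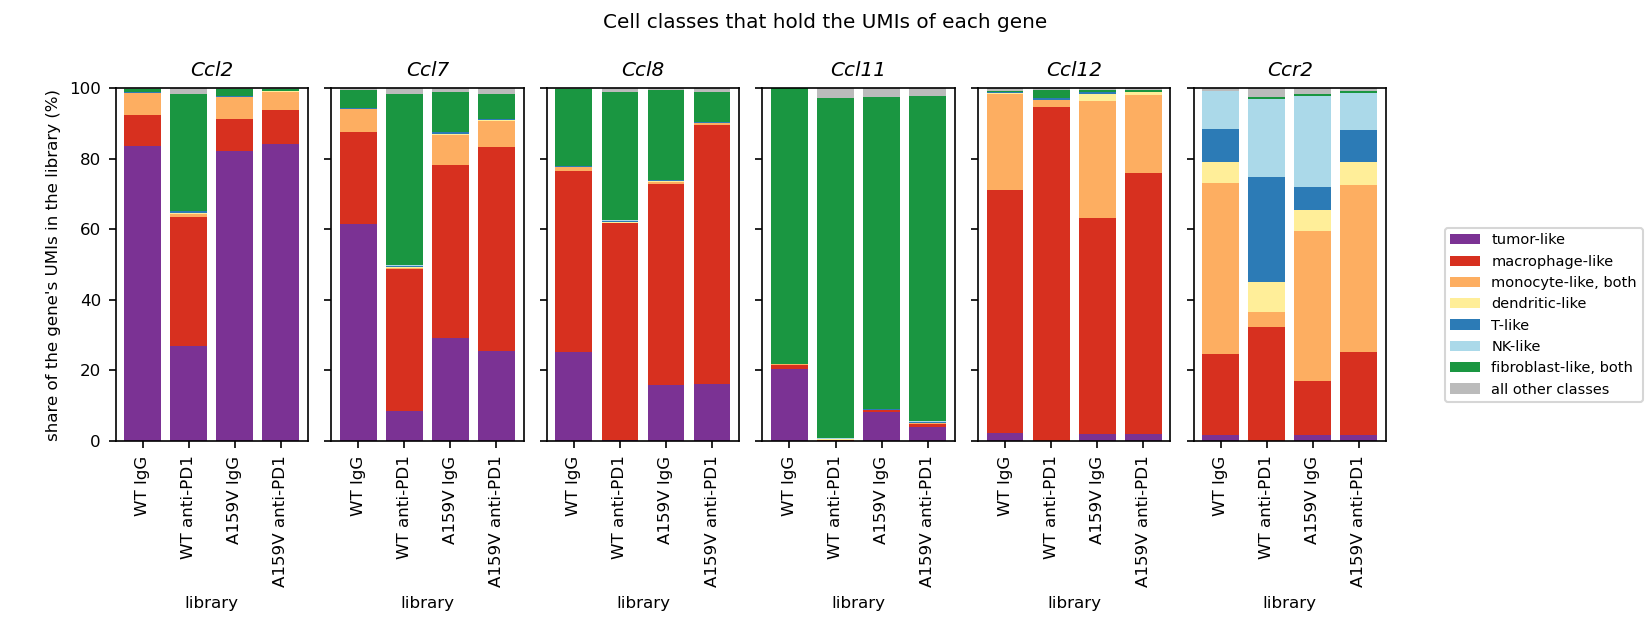
Share (percent, vertical axis) of each gene's UMIs in a library (horizontal axis) that lay in each group of cell classes, by color. Tumor-like cells hold over 80% of the Ccl2 UMIs in 3 libraries and 27.1% in WT anti-PD1, macrophage-like cells hold most of Ccl8 and Ccl12 in all 4, and fibroblast-like cells hold most of Ccl11.

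Levels per class and the sheer number and size of cells together set where the transcripts lay. The shares depend on the bead-based remixing and on cell size, since tumor-like cells held far more UMIs each than monocyte-like cells. Tumor-like cells held 83.6% of all Ccl2 UMIs in WT IgG, 82.2% in A159V under IgG and 84.2% in A159V under anti-PD1, although macrophage-like cells had the higher CPM. In WT anti-PD1 macrophage-like, tumor-like and myofibroblast-like cells held 36.5%, 27.1% and 26.6%. The share of Ccl7 in tumor-like cells was 61.6% in WT IgG against 29.2% in A159V under IgG and 25.5% in A159V under anti-PD1, where macrophage-like cells held more, 49.0% and 57.9%.

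Macrophage-like cells held 51.4% to 73.3% of the Ccl8 UMIs and 61.2% to 94.6% of the Ccl12 UMIs in the 4 libraries. Myofibroblast-like cells held 73.6%, 81.8% and 84.0% of Ccl11 in WT IgG, A159V IgG and A159V anti-PD1, and in WT anti-PD1 they and the Dpt fibroblast-like cells held 43.0% and 53.5%. On the receiving side monocyte-like cells held 38.3% to 44.1% of the Ccr2 UMIs in 3 libraries and 3.87% in WT anti-PD1. There macrophage-like cells held 32.4%, NK-like cells 22.0%, Treg-like cells 11.1% and CD8 T-like cells 10.9%.

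Other genes of the pathway were taken from fixed lists. Of 14 other CC ligands, Ccl19, Ccl21a and Ccl27a share their symbol between gene entries and were left out, and 7 of the other 11 were at 10 CPM or more in macrophage-like cells. In WT anti-PD1 over WT IgG, 3 were 2-fold higher, Ccl24 (3.91 to 95.1 CPM), Ccl6 (620.4 to 2394 CPM) and Ccl9 (413 to 948 CPM), and 1 was 2-fold lower, Ccl5 (-1.23). Over all 8404 genes 5.57% were 2-fold higher and 5.74% lower. The median of the 7 was -0.48, beside -0.050 for all genes. In A159V IgG over WT IgG 1 of 7 was 2-fold higher, Ccl24 at 1.72, and in A159V anti-PD1 over A159V IgG 0 of 7 passed 2-fold.

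Among 19 cytokine inducers and NF-kB, AP-1 and STAT factors, 17 were measured in macrophage-like cells. None passed 2-fold between the IgG libraries, Csf1 alone was 2-fold lower in WT anti-PD1 (-1.30), and Irf1, an interferon-induced factor, alone was 2-fold higher in A159V anti-PD1 over A159V IgG (1.23). It was 0.92 in WT anti-PD1 over WT IgG. In tumor-like cells 14 of the 19 were measured, and 2 were 2-fold lower in A159V than in WT under IgG, the AP-1 genes Jun (1064 to 404 CPM) and Fos (651 to 279.9 CPM). Over all 8903 genes 4.2% were 2-fold lower and 1.76% higher. The median of the 14 was -0.51 beside -0.022 for all genes, and Nfkb1 and Irf1 were both at -0.77. Of 7 genes that govern the stability or the signals behind chemokine mRNA, 6 were measured there, and 2 were 2-fold lower, Dusp1 (419 to 92.8 CPM), a phosphatase of MAP kinases, and Zfp36l1 (182 to 51.0 CPM), an mRNA-decay factor, with a median of -0.59 and against the same 4.2% of all genes. All 7 were measured in macrophage-like cells, and none passed 2-fold in the 3 comparisons.

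Genes of the monocyte state were read beside Ccr2 in macrophage-like cells. Ly6c2, Plac8, Chil3, Vcan, Hp and Ms4a4c of this list were also the markers that named monocyte-like clusters. Their levels in macrophage-like cells thus depend in part on the naming and are a description only. Of 13, 12 were measured in WT anti-PD1 over WT IgG. There 3 were 2-fold lower, Ms4a4c (-2.11), Ly6c2 (-1.88) and Plac8 (-1.73), and 2 were 2-fold higher, Fn1 (1.69) among them, against 5.74% and 5.57% of all genes. The median of the 12 was 0.17, beside -0.050 for all genes, so the list as a whole was not lower. In A159V anti-PD1 over A159V IgG 2 of 13 were 2-fold higher, Chil3 (1.36) and Vcan (1.30), against 1.33% of all genes, with a median of 0.49 beside -0.032 for all genes. Beside these, the Ccr2 ratio of the class was -0.13 in WT and 0.66 in A159V. None of 13 passed 2-fold between the IgG libraries. In tumor-like cells 3 of the 13 were measured and 2 were 2-fold lower in A159V IgG, against 4.2% of 8903 genes. They were Plac8 (41.0 to 18.4 CPM) and Nr4a1 (19.0 to 8.26 CPM). The 6 monocyte markers, Plac8 among them, summed there to 58.3 CPM in WT IgG and 25.6 in A159V IgG. Whether these were the tumor-like cells' own transcripts was not tested. Of other CC ligands 3 were measured there with none past 2-fold, Ccl5 at -0.71.

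Within macrophage-like cells Ccl2 was found beside Ccl7 and Ccl12 more than beside Ccl8 or Ccr2. In WT IgG, of cells thinned to 1500 UMIs, Ccl7 was present in 59.7% of those with Ccl2 and 26.7% of those without, and Ccl12 in 43.7% and 20.4%. Ccl8 was present in 9.96% and 8.97%, and Ccr2 in 24.9% and 25.3%. The pair of Ccl2 and Ccl7 looked alike in the other libraries, at 48.7% against 18.1% in WT anti-PD1, 63.8% against 30.5% in A159V under IgG and 54.5% against 19.0% in A159V under anti-PD1. In the fibroblast-like cells of WT anti-PD1, Ccl7 was in 43.8% of cells with Ccl2 and 15.7% of those without, Ccl11 in 53.3% and 50.8%, and Ccl8 in 36.2% and 31.9%. Cells of a library share its background, so these shares are a description.

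Over 54 profiles of 1 class in 1 library, which share libraries and depth, the levels (log2 of CPM + 1) of Ccl2 and Ccl7 went together with a Pearson r of 0.86, those of Ccl8 and Ccl11 with 0.72 and those of Ccl2 and Ccl12 with 0.69. Ccr2 had an r of -0.13 with Ccl2, -0.43 with Ccl11 and 0.38 with Ccl12. Among genes outside the group, genes like Ccr2 included Tnfaip8l2 (0.89) and Itgb7 (0.87). Ccl12 was most like the macrophage genes Msr1 (0.88) and C3ar1 (0.87) and like F13a1 (0.86), a gene of the monocyte list. Ccl11 was most like the stromal genes Ogn (0.95), Adamts15 and C1qtnf3 (both 0.95). Ccl8 was nearest to Igf1 (0.84), Gas6 (0.83) and Ctsk (0.82), and Ccl7 to Fblim1 (0.85), Ctsl (0.82) and Pdpn (0.81). Ccl2 was nearest to Gm17268 (0.88), Blvrb (0.85) and Hmox1 (0.84). Gm17268 overlaps Ccl2 on the other strand, and how strand entered the counting was not given in the sources used here. Whether reads of either gene were counted for the other was not tested.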

How the data were processed

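The authors made 10x Genomics 3′ v3.1 libraries and deposited raw UMI counts per gene and cell for barcodes called as cells. Per the file headers the counts came from Cell Ranger 7.2.0, while the submitters' processing notes list Cell Ranger 5.0.1 and mm10, and the study's methods give Cell Ranger 7.2 and an mm10 reference with introns counted. The authors' own removal of background RNA and doublets is not in the deposited counts, and neither their cell names nor background removal were used here. Members, marker lists and gene lists were chosen with earlier results of these data known.

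Cells with more than 500 genes were kept, with no limit on mitochondrial UMIs. Doublets were scored against 2 simulated doublets per cell, and cells were dropped from the top of the score at 0.8% per 1000 cells, in all 425, 374, 529 and 631 cells from the WT libraries under IgG and anti-PD1 and the A159V libraries under IgG and anti-PD1. In that order, analysed cells had median depths of 4175, 4172, 3331 and 3500 UMIs. Counts were scaled to 10000 per cell and logged, and 2000 variable genes without the 6 members, 20 principal components and 20 neighbors went into Leiden clustering at resolution 1. T and NK cells, phagocytes and fibroblasts were clustered again alone. A cluster took the name of the best of 20 marker lists (mean z-score) among lists with at least 3 markers detected in 10% of its cells, unless another list had more markers among its 10 leading genes. A cluster of low depth with none of its markers leading stayed unnamed. The rule for which lists could compete was revised after the first naming was seen. Groups came from the sample labels.

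Per class and library, summed UMIs gave CPM. Levels carry exact 95% Poisson intervals, shares exact Clopper-Pearson intervals and log2 ratios delta-method intervals at a pseudocount of 1 CPM, all for counting error only. A gene counted as measured at 10 CPM or more in 1 of 2 libraries, a zero allowed 3 counts, and no test was made with 1 library per group. The genes named were the 6 members, the 3 genes of highest Pearson r to each among genes with 50 CPM in 1 profile of at least 50 cells, and from each list genes among the 4 of largest ratio. Genes that lead a cluster were named besides. Some results under this rule are not reported here. Of the genes counted, 32235 matched GENCODE M21. The steps were tested on simulated data and run with Python 3.11.15, numpy 2.4.6, scipy 1.17.1, pandas 2.3.3, scikit-learn 1.9.0, leidenalg 0.10.2 and matplotlib 3.10.9. Alternatives were another gene minimum, a mitochondrial limit, doublets kept, resolution 2, a gate on marker genes, other scaling, pseudocounts and level filters, means over cells, other thinning and tumor-like cells without immune or collagen transcripts.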

Additional observations from a re-analysis of the deposited data

Results flagged for a closer look

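Gene and class pairs were picked where anti-PD1 went opposite ways in the WT and the A159V tumors. Both ratios had to differ from 0 beyond counting error, which was the rule of choice and is no result. Among the 6 genes in all named classes with at least 50 cells in each library, 4 pairs met it. All are log2 ratios of the anti-PD1 library over its IgG library, given as the WT ratio minus the A159V ratio, and with 1 library per group none of the differences was tested. Ccr2 in macrophage-like cells differed by -0.79 (-0.13 in WT and 0.66 in A159V). The WT anti-PD1 macrophage-like cells lay mostly in clusters 7, 11 and 13, and within the clusters with enough cells in both WT libraries the WT ratio was 1.03 (0.87 to 1.19) in cluster 4 and -0.40 (-0.78 to -0.014) in cluster 6, with the counting interval. Ccl8 in myofibroblast-like cells differed by 0.79 (0.48 in WT and -0.30 in A159V) and Ccl11 in the same cells by -0.71 (-0.37 in WT and 0.34 in A159V), both under 2-fold in each genotype. Ccl2 in CD4 T-like cells differed by -3.50 (-1.34 in WT and 2.16 in A159V), on 27 UMIs in WT IgG against 25 in WT anti-PD1 and 2 in A159V IgG against 18 in A159V anti-PD1, in a class that is no known source of it.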

How the results depend on the processing

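Of 312 ratios recomputed under other settings, 301 kept the sign reported and 11 did not. The higher Ccl8 of macrophage-like cells in WT anti-PD1 over WT IgG ran from 2.23 to 2.87, the lower Ccl2 from -1.23 to -0.87, Ccl12 from -1.92 to -1.65, and Ccl7 of tumor-like cells in A159V IgG over WT IgG from -2.99 to -1.86. The summed ligands of macrophage-like cells were less settled. For A159V IgG over WT IgG they were 0.16 with over 1000 genes per cell, -0.060 at 10% mitochondrial UMIs, -0.079 at resolution 2, 0.045 by the marker gate and -0.10 as a mean over cells. For WT anti-PD1 over WT IgG they were -0.041, -0.11, -0.0091 and, reversed, 0.13 under the first 4 of these, -0.0085 with doublets kept and -0.12 by median-of-ratios scaling. For A159V anti-PD1 over A159V IgG they were -0.11, -0.074 and, reversed, 0.041 and 0.013, and -0.23 by scaling, and resolution 2 put 1 ligand past 2-fold. Summed ligands of tumor-like cells in A159V IgG over WT IgG were -0.93 at resolution 2, -1.02 by the gate, -1.43 by scaling, -1.53 over cells and -0.85 without immune or collagen transcripts, and in A159V anti-PD1 over A159V IgG 0.20, 0.62, 0.38, 0.32 and 0.57, with 0.44 when doublets were kept. Ccr2 of monocyte-like cells was -0.26, -0.17, 0.090 and 0.035 in A159V IgG over WT IgG at 1000 genes, resolution 2, the gate and over cells, 0.58 by scaling in WT anti-PD1 over WT IgG, and 0.37 at 10% mitochondrial UMIs and 0.45 over cells in A159V anti-PD1 over A159V IgG. Ccl7 of tumor-like cells in that comparison reversed to -0.23 at resolution 2 and -0.20 over cells, and Ccl2 of monocyte-like cells in A159V IgG over WT IgG to 0.020 over cells. The cause of these changes was not tested.

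No paired analysis was possible because each group has 1 library, and leaving out a library leaves no comparison. Depth limits Ccl11 and Ccl12 outside their main senders, the 78 monocyte-like cells of WT anti-PD1, and the T-like values. Free RNA was not removed. Thinning to 1000 UMIs in place of 1500 lowered the shares, as its construction implies.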

Other observations

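The WT anti-PD1 library had 25 tumor-like cells with 5705 Ccl2 UMIs, of which a single cell held 4318 and the top 5 cells 94.3%. They held 27.1% of the Ccl2 UMIs of that library.

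Ccl12 in cDC2-like cells, dendritic cells that present antigen to CD4 T cells, stood at 99.9 CPM in A159V IgG (75.5 to 129.8, 56 UMIs), 16.6 in WT IgG, 2.67 in WT anti-PD1 and 26.9 in A159V anti-PD1. T-like cells of the 4 libraries held 1.64 to 11.6 CPM, highest in A159V IgG as well. Neutrophil-like cells held Ccr2 at 57.2 CPM in WT and 80.8 in A159V under IgG, and 2.08 in WT and 42.6 in A159V under anti-PD1, on 9, 15, 2 and 14 UMIs. On 2 UMIs the WT anti-PD1 value, from 564 cells, has an interval of 0.252 to 7.51 CPM.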
